A study of Drosophila melanogaster with 384 samples.

Results

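The lines compared were the 24 DGRP lines with the highest and the 24 with the lowest transcript levels of the small heat shock genes Hsp23, Hsp26 and Hsp27, out of 96 lines of Drosophila melanogaster. DGRP lines are inbred lines derived from wild-caught females of a single population, so that each line is 1 genotype. All flies were reared on medium with 10% (v/v) ethanol, which the high lines, the low lines and the 48 lines between them (middle lines) therefore shared, and young adults were collected. Each line had 2 replicate libraries of females (25 whole flies each) and 2 of males (30 whole flies each), so that the 48 lines compared had 4 libraries each, out of 384 libraries in all. Only ethanol-reared flies were analysed here, and no line was treated with heat.

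Small heat shock proteins are chaperones that bind unfolding proteins without using ATP and hold them in a state from which Hsp70 and its partners can refold them. In Drosophila their genes lie in a cluster on the left arm of chromosome 3, are induced by heat through heat shock factor, and are also transcribed without stress in development, under control of the moulting hormone ecdysone, and in the ovary. Long-lived and stress-selected flies often carry more of their transcripts. Hsp68 and the Hsp70 genes encode inducible ATP-dependent chaperones, and Hsp70 is nearly silent in unstressed flies.

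Whole flies were measured by RNA sequencing of ribosome-depleted total RNA, and the deposited counts covered 17097 FlyBase gene models and 22726 newly transcribed regions (NTRs). Depth ranged over 5356737 to 17401404 gene counts a library, and its median was 11000985 in females of high lines, 10434485 in females of low lines, 10271104 in males of high lines and 10283306 in males of low lines. Flow cells A and B held the female libraries of 12 high and 11 low lines and the male libraries of 17 high and 22 low lines, with the first replicate on A and the other on B. Some libraries stood apart. In 1 female library of DGRP_900, 1 male library of DGRP_786 and 3 libraries of DGRP_707, all high lines, inducible heat shock genes were raised, and 7 lines had a female library with testis transcripts. Results that rest on DGRP_707, DGRP_786 and DGRP_900 are given with and without these lines. For the 7 lines with testis transcripts, counts of calls and the calls of the main spread genes are given without them. Leaving out DGRP_707, DGRP_786 and DGRP_900 need not remove every library with raised heat shock genes. In all, 4 of 48 female libraries of high lines had more than 10 CPM of Hsp70Bb.

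The score that ranked the lines was the mean of log2(CPM + 1) over the small heat shock genes, where CPM is the count scaled to a common library total, centred in each sex and averaged over the 4 libraries of a line. Hsp22 was also meant to enter it but had 0 counts in each of the 384 libraries, so the ranking rested on Hsp23, Hsp26 and Hsp27 and says nothing about Hsp22. The groups were chosen by these values, which are therefore described without a test. The score was 0.198 in the lowest of the high lines and 0.196 in the next line below them, and it was −0.133 in the highest of the low lines and −0.131 in the next line above them, so that neither limit fell in a gap. The median score was 0.285 in high lines, which reached 0.739, and −0.261 in low lines, which went down to −1.46.

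In females, Hsp23 (3L:9374982-9375865, plus strand, release 5) was at 7.11, 26.7 and 143.7 CPM in the lowest, median and highest high line, and at 2.43, 5.84 and 19.7 CPM in the lowest, median and highest low line. CPM of single genes are from the summed counts of both replicates of a line and are normalized by TMM. The highest was DGRP_315, and 14 of 24 high lines lay above every low line. Hsp26 (3L:9369518-9370527, minus strand) was at 298, 768 and 1220 CPM in high lines and at 2.89, 414 and 687 CPM in low lines. Hsp27 (3L:9377163-9378794, plus strand) was at 91.0, 203.5 and 299.8 CPM in high lines and at 20.9, 112 and 266 CPM in low lines. Hsp26 was above every low line in 17 high lines and Hsp27 in only 4, since the low line DGRP_49 had 266 CPM of Hsp27. The ratio of the medians, high over low, was 4.57 for Hsp23, 1.85 for Hsp26 and 1.81 for Hsp27.

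The groups lay closer together in males. Hsp23 was at 30.1, 44.2 and 86.2 CPM in the lowest, median and highest high line, against 13.5, 35.1 and 55.3 CPM in low lines. Hsp26 was at 63.2, 89.9 and 186 CPM in high lines, against 15.1, 65.1 and 112 CPM in low lines. Hsp27 was at 18.8, 27.6 and 38.7 CPM in high lines, against 11.8, 20.5 and 29.7 CPM in low lines. The groups overlapped for each of these genes, with 6, 6 and 9 high lines above every low line for Hsp23, Hsp26 and Hsp27. The ratios of the medians were 1.26, 1.38 and 1.35.

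**Figure D1:**
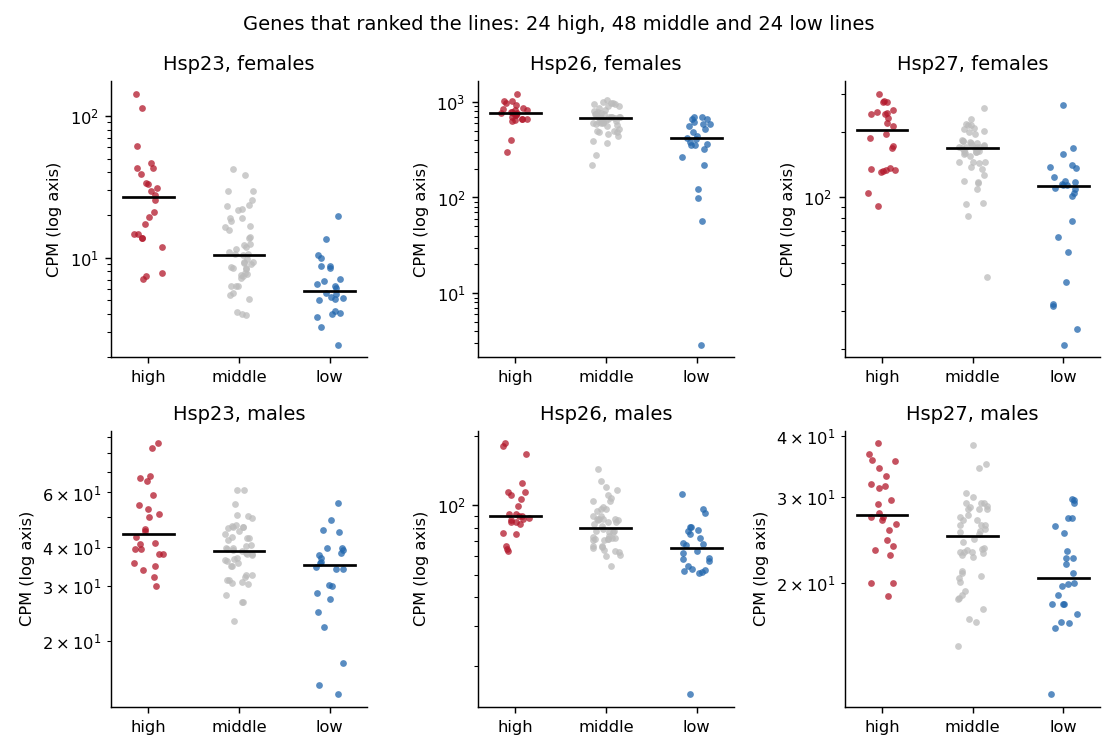
Levels of Hsp23, Hsp26 and Hsp27 (CPM, log axis) in females (top) and males (bottom) of the 24 high, 48 middle and 24 low lines. Each point is 1 line and the bar is the median of the group. In females the Hsp23 medians were 26.7 CPM in high lines and 5.84 CPM in low lines, and a single low line stood at 2.89 CPM of Hsp26.

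The 3 genes did not mark the same lines. Counting for each line how many of the 6 values (3 genes in 2 sexes) were above the median of the 96 lines, 4 high lines had all 6, 9 had 5, 6 had 4 and 5 had 3. Among low lines, 8 had none, 7 had 1, 7 had 2 and 2 had 3. In females all 3 genes were above their medians in 15 high lines and in 0 low lines. In males this held for 11 high lines and 0 low lines. Over the 96 lines Hsp26 and Hsp27 had a Spearman rho of 0.668 in females and 0.44 in males, while Hsp23 and Hsp26 had 0.232 in females and 0.0892 in males. These are descriptions over lines whose values come from the same libraries.

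The lowest score was that of DGRP_461, and it came mainly from Hsp26. Its replicate libraries had 1.73 and 3.77 CPM of Hsp26 in females, and 15.1 and 15.3 CPM in males. Its Hsp23 was the highest of the low lines in males, at 55.3 CPM. The same line had the highest level of Hsp83, the Hsp90 gene that is transcribed without stress, of all 48 lines, with 4877 CPM in its females and 1931 CPM in its males.

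The score of a line was partly kept between its separately collected replicates. Over 96 lines the scores of replicate 1 and replicate 2 had a Pearson r of 0.728 and a Spearman rho of 0.615 in females, and 0.655 and 0.66 in males (permutation test, two-sided, p = 1e-05 each, the smallest that 100000 permutations can give, and 1.5e-05 after Benjamini-Hochberg, BH, adjustment over the 3 relations computed). The scores of females and males were less alike, with r = 0.414 (permutation p = 6e-05, adjusted 7.2e-05) and rho = 0.339 (permutation p = 0.00068, adjusted 0.00068). Without the 2 lines farthest from the median, r was 0.62 in females, 0.59 in males and 0.308 between the sexes (permutation p = 0.0026). Within the lines whose replicates ran on flow cells A and B, r was 0.73, 0.652 and 0.387, and within the other lines it was 0.758, 0.662 and 0.44. Of the high lines, 19 had a positive mean score in both sexes, and of the low lines 21 had a negative one. All 4 libraries were above 0 in 13 of the 24 high lines and below 0 in 16 of the 24 low lines. Ranking on females alone and on males alone gave 8 shared high lines and 11 shared low lines, while 4 lines were high by females and low by males and 2 the reverse.

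**Figure D2:**
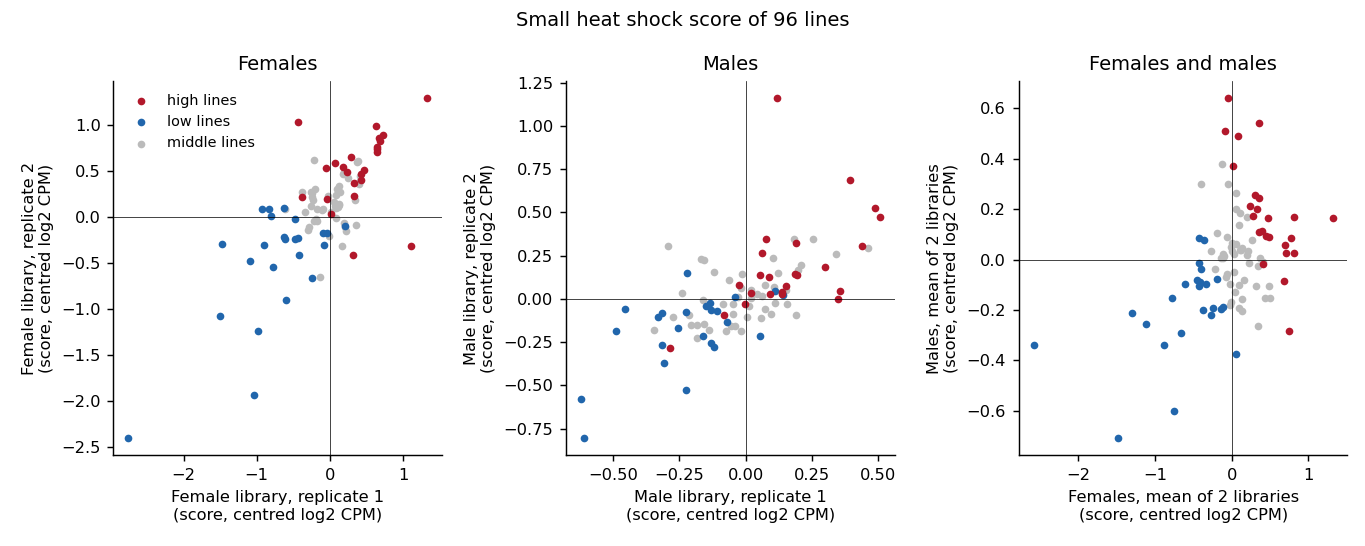
Score (centred log2 CPM) of each of the 96 lines in replicate 1 (x axis) and replicate 2 (y axis) of females and of males, and the mean score of females (x axis) against that of males (y axis). Points are lines, coloured as high, low or middle. The relation was r = 0.728 in females, 0.655 in males and 0.414 between the sexes.

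Because these genes chose the lines, they were tested only in libraries that had no part in the ranking. The test was edgeR's quasi-likelihood F-test over all transcripts that averaged 5 counts a library or more, with BH adjustment and a threshold of 0.05. When males were ranked on the score of replicate 1 and compared in replicate 2, Hsp26 was at 57.9, 94.1 and 199.9 CPM (lowest, median, highest) in the 24 high lines, against 15.3, 66.8 and 128.7 CPM in the 24 low lines, a log2 fold change of 0.53 ± 0.139 (SE, adjusted p = 0.0301). Hsp27 differed by 0.39 ± 0.0893 (adjusted p = 0.0137) and Hsp23 by 0.40 ± 0.145 (adjusted p = 0.116). In these libraries 2.38% of all transcripts passed, 1.89% being higher in high lines. With the replicates exchanged, Hsp26 differed by 0.56 ± 0.13 (adjusted p = 0.0309), Hsp27 by 0.40 ± 0.0975 (adjusted p = 0.0321) and Hsp23 by 0.42 ± 0.139 (adjusted p = 0.0724), with 1.91% of all transcripts past the threshold and 1.31% higher in high lines.

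In females the genes that passed differed between the directions of the exchange. Ranked on replicate 1, Hsp23 of replicate 2 was at 6.43, 27.1 and 159.3 CPM in high lines, against 1.93, 6.95 and 92.8 CPM in low lines, a log2 fold change of 1.5 ± 0.344 (adjusted p = 0.0262), while Hsp26 (0.67 ± 0.264, adjusted p = 0.675) and Hsp27 (0.46 ± 0.223, adjusted p = 0.915) did not pass. Here 0.467% of all transcripts passed, and 0.183% were higher in high lines. Ranked on replicate 2, Hsp27 of replicate 1 was at 89.8, 190.3 and 284.7 CPM in high lines, against 19.3, 100.1 and 183 CPM in low lines, a log2 fold change of 0.99 ± 0.19 (adjusted p = 0.00235), and Hsp26 (0.71 ± 0.247, adjusted p = 0.131) and Hsp23 (0.62 ± 0.423, adjusted p = 0.441) did not pass. Here 1.5% of all transcripts passed, with 0.463% higher and 1.04% lower in high lines. Hsp23 was at 5.21, 22.7 and 122.5 CPM in these high lines, against 2.23, 5.76 and 236.9 CPM in these low lines, and 23 of 24 high lines lay above the low median. The highest low value was that of replicate 1 of DGRP_900, which its replicate 2 had ranked among the low lines. Without DGRP_707, DGRP_786 and DGRP_900, left out after seeing the data, Hsp23 differed by 1.87 ± 0.295 (adjusted p = 0.00064), Hsp27 by 1.07 ± 0.195 (adjusted p = 0.00215) and Hsp26 by 0.73 ± 0.261 (adjusted p = 0.169), with 1.3% of all transcripts past the threshold, 0.327% higher and 0.975% lower in high lines. Leaving these lines out changed no other call of the 3 genes in either sex.

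Between the sexes none of the 3 genes passed. In females ranked on males, the log2 fold changes were 0.79 ± 0.371 for Hsp23, 0.57 ± 0.259 for Hsp26 and 0.45 ± 0.209 for Hsp27 (adjusted p = 0.827, 0.779 and 0.819), and 0.407% of all transcripts passed. In males ranked on females they were 0.32 ± 0.124, 0.28 ± 0.115 and 0.10 ± 0.0969 (adjusted p = 0.538, 0.596 and 0.896), and 0.327% of all transcripts passed. Every one of these differences was positive, and 16 to 21 of the 24 high lines lay above the median of the low lines.

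The other heat shock genes were then compared between the 24 high and 24 low lines of the full score. Their levels come from the same libraries that ranked the lines. In females 131 of 14879 transcripts tested passed (0.88%), of which 71 were higher in high lines (0.477%) and 60 lower (0.403%). Among the 4 inducible chaperone genes tested, Hsp70Ba, Hsp70Bb and Hsp68 were higher in high lines, and the list had a median log2 fold change of 1.77 beside −0.02 over all transcripts tested. Hsp68 (3R:19880802-19883032, minus strand) was at 8.52, 14.4 and 204.9 CPM in high lines, against 4.61, 11.2 and 25.0 CPM in low lines, a log2 fold change of 1.13 ± 0.283 (adjusted p = 0.0329), and 19 of 24 high lines lay above the median of the low lines. Hsp70Bb was at 0.198, 1.92 and 78.8 CPM in high lines, against 0.423, 0.952 and 3.52 CPM in low lines, a log2 fold change of 2.25 ± 0.47 (adjusted p = 0.0129). Hsp70Ba differed by 3.01 ± 0.792 (adjusted p = 0.0477), with medians of 0.0704 CPM in high lines and 0 CPM in low lines. Hsp70Bc differed by 1.28 ± 0.48 and did not pass (adjusted p = 0.162). With DESeq2 only Hsp68 of these genes passed, and with limma-voom 0 did. In female libraries that had no part in the ranking, Hsp68 did not pass (edgeR). Ranked on replicate 1 it differed by −0.10 ± 0.243 (adjusted p = 0.972), and ranked on males by 0.74 ± 0.334 (adjusted p = 0.779). Ranked on replicate 2 it differed by −0.60 ± 0.42 (adjusted p = 0.465), with medians of 14.7 CPM in high lines and 11.9 CPM in low lines. The highest low value there was 436.5 CPM, in replicate 1 of DGRP_900, while 16 of 24 high lines lay above the low median. The Hsp70 genes are near-identical copies, and reads that matched more than 1 place were not counted, so how their reads divide among them is uncertain.

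These calls rested on a few lines. Without DGRP_900 none of the 3 passed, with adjusted p of 0.066 for Hsp68, 0.0501 for Hsp70Bb and 0.0999 for Hsp70Ba. In females of DGRP_900, replicate 1 had 436.5 CPM of Hsp68, 171.3 CPM of Hsp70Bb, 376.9 CPM of the Hsp40 gene DnaJ-1 and 236.9 CPM of Hsp23, with a score of 1.10. Replicate 2 of the same line had 19.2 CPM of Hsp68, 4.30 CPM of Hsp70Bb and a score of −0.31. Replicates of DGRP_786 males differed likewise, with 327.1 CPM of Hsp68 in replicate 2 (score 1.16) and 49.3 CPM in replicate 1 (score 0.12), while DGRP_707 had raised levels in both male libraries (152.5 and 127.7 CPM). More than 10 CPM of Hsp70Bb was found in 4 of 48 female libraries of high lines, 0 of 48 of low lines and 5 of 96 of middle lines, and in 3 male libraries of high lines, 1 of low lines and 3 of middle lines. Without DGRP_707, DGRP_786 and DGRP_900, which were chosen after seeing these values, Hsp68 differed by 0.62 (adjusted p = 0.0403) and Hsp70Ba by 2.09 (adjusted p = 0.0478), and Hsp70Bb by 0.82 (adjusted p = 0.0567). The high line DGRP_318, whose female replicates also differed widely, with scores of −0.44 and 1.04, stayed in.

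In males Hsp68 was at 49.0, 67.6 and 193 CPM in high lines, against 31.7, 54.2 and 91.4 CPM in low lines, and its log2 fold change of 0.43 ± 0.119 did not pass (adjusted p = 0.121), although 21 of 24 high lines lay above the median of the low lines. None of the 4 genes of the list passed in males, where 64 of 18925 transcripts did (0.338%; 35 higher, 0.185%, and 29 lower, 0.153%). In male libraries that had no part in the ranking, Hsp68 differed by 0.39 ± 0.104 ranked on replicate 2 (edgeR, adjusted p = 0.041). With limma-voom it did not pass there (adjusted p = 0.075). Ranked on replicate 1 it differed by 0.20 ± 0.146 (edgeR, adjusted p = 0.473), and ranked on females by 0.17 ± 0.108 (adjusted p = 0.816). Over the 96 lines Hsp68 had a Spearman rho of 0.422 with Hsp23, 0.513 with Hsp26 and 0.462 with Hsp27 in males. In females it had 0.359 with Hsp23, −0.084 with Hsp26 and −0.0047 with Hsp27.

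**Figure D3:**
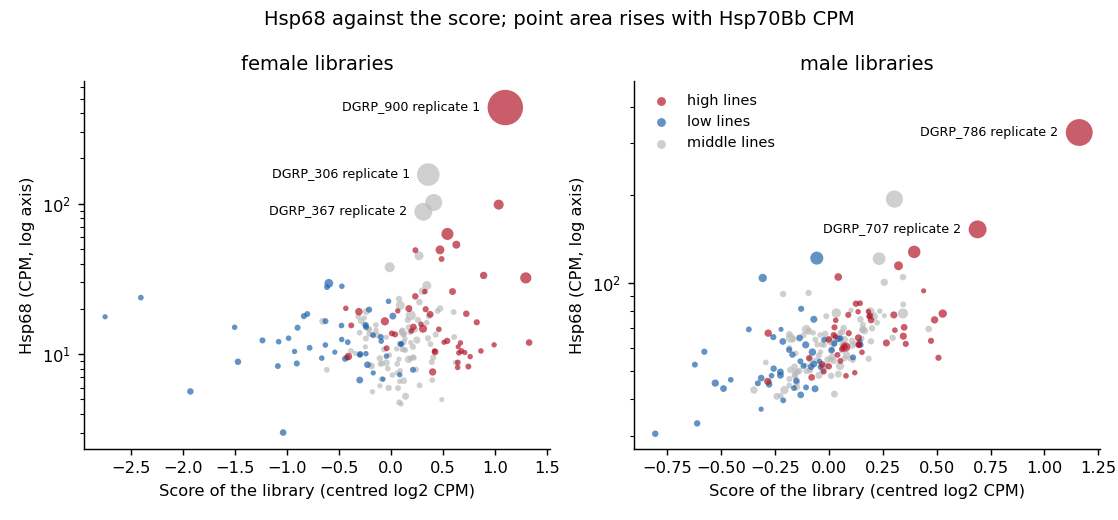
Hsp68 (CPM, log axis) against the score (centred log2 CPM) of each library, in females and males, with the area of a point rising with the level of Hsp70Bb. Colours mark high, low and middle lines, and names mark libraries with more than 40 CPM of Hsp70Bb. The highest points were DGRP_900 replicate 1 in females, at 436.5 CPM, and DGRP_786 replicate 2 in males, at 327.1 CPM.

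No other small heat shock gene passed over the 48 lines, where 0.88% of all transcripts passed in females and 0.338% in males. Of 7 tested in females 0 passed, 6 had negative fold changes and the median log2 fold change was −0.09. Of 8 tested in males 0 passed and 6 were positive, with a median of 0.04. This included the genes that share the cluster with Hsp23, Hsp26 and Hsp27. Hsp67Ba (3L:9370902-9372634, minus strand), which lies between Hsp26 and Hsp23, was at 1.43, 2.50 and 4.76 CPM in high lines and 1.5, 2.85 and 13.4 CPM in low lines in females (−0.40 ± 0.177, adjusted p = 0.212), and CG4461, another small heat shock gene of the cluster, differed by −0.06 ± 0.136 (adjusted p = 0.842). Hsp67Bc (3L:9364611-9365597, minus strand) differed by 0.32 ± 0.28 (adjusted p = 0.538) and was highest in DGRP_900, at 15.7 CPM. The small heat shock gene l(2)efl, related to alpha-crystallin of the vertebrate lens, differed by −0.15 ± 0.115 (adjusted p = 0.485). Of the 20 nearest annotated genes on both sides of the cluster, 18 were tested in each sex and 0 passed. At an unadjusted p under 0.05 (edgeR) were 5 in females and 2 in males, against 18.8% and 8.93% of all transcripts. So few genes do not set the neighbours apart from other transcripts. Without DGRP_707, DGRP_786 and DGRP_900, Hsp67Ba was called lower in females (1 of 7), where 11.5% of all transcripts passed.

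No gene of the wider chaperone system passed over the 48 lines, where 0.88% of all transcripts passed in females and 0.338% in males. At such shares, lists this short could have 0 calls without differing from other transcripts. Of 17 genes of Hsp90 and the cytosolic co-chaperones 0 passed in females, with a median log2 fold change of 0.08 (14 positive), and of 19 in males 0 passed, with a median of 0.05. Hsp83 had medians of 2985 CPM in high lines and 2856 CPM in low lines in females, and 1082 CPM in high lines and 1064 CPM in low lines in males. Hsc70-4, the constitutive cytosolic Hsp70, had 2586 CPM in high lines and 2625 CPM in low lines in females. Of 9 mitochondrial and 12 endoplasmic reticulum chaperone genes 0 and 0 passed in females, and likewise 0 of 10 and 0 of 12 in males. Hsf, which encodes heat shock factor, was at 138, 219 and 263 CPM in high lines and at 108, 188 and 238 CPM in low lines in females (0.20 ± 0.0695, adjusted p = 0.146). Hsromega, a noncoding RNA induced by heat, had medians of 784 CPM in high lines and 823 CPM in low lines (adjusted p = 0.923). Without DGRP_707, DGRP_786 and DGRP_900, mrj, Hsf and Ero1L were called higher in females and Hsp60B and Xbp1 lower. In that fit 11.5% of all transcripts passed.

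Genes of ethanol metabolism showed no call, where 0.88% of all transcripts passed in females and 0.338% in males. Adh, alcohol dehydrogenase, had medians of 11.2 CPM in high lines and 12.2 CPM in low lines in females (−0.29 ± 0.193, adjusted p = 0.405). Aldh, aldehyde dehydrogenase, had 534 CPM in high lines and 571 CPM in low lines (−0.08 ± 0.0722, adjusted p = 0.541). Ambiguous reads were given to no gene. How far this lowered the counted level of Adh was not tested, so its CPM need not be its transcript level. In all, 0 of 9 genes passed in females and 0 of 9 in males. Likewise 0 of 32 genes of oxidative stress and glutathione metabolism, 0 of 20 genes of the ecdysone response, 0 of 14 targets of FOXO and JNK signalling, 0 of 6 metallothionein genes, 0 of 11 antimicrobial peptide genes and 0 of 4 Turandot genes passed in females, with medians between −0.21 and 0.03. In males these lists also had 0 calls. Over the 18 lists without a call in females, 59 of 255 members had an unadjusted p under 0.05 with edgeR, against 18.8% of all transcripts. Over the 21 lists in males 24 of 289 did, against 8.93%. DESeq2 and limma-voom called 0 of these members. The 59 include tissue markers, with 12 of 15 in the accessory gland and ejaculatory bulb list. Ethanol metabolism had 1 of 9 in females, oxidative stress and glutathione 5 of 32, and the ecdysone response 6 of 20. FOXO and JNK targets had 2 of 14, metallothioneins 1 of 6, antimicrobial peptides 0 of 11 and Turandot genes 0 of 4.

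The 131 transcripts that passed in females were of 2 kinds. For 104 of them a single line held at least 10% of the summed CPM of the 48 lines, where an even share would be 2.08%, and their median absolute log2 fold change was 2.95. For the other 27 no line held more than 6.66%, and the median was 0.29. The limit of 10% was set after seeing the data and lay in a gap, the lowest share of the first kind being 13.1%. Of the 27 transcripts spread over lines 25 were annotated, against 47 of the 104, and the rest were NTRs.

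Among the 27, 16 were higher in high lines. Paip2, which encodes a repressor of translation that binds the poly(A)-binding protein, was at 125, 147 and 195 CPM in high lines, against 96.0, 131 and 165 CPM in low lines, a log2 fold change of 0.21 ± 0.0454 (adjusted p = 0.0132), and 22 of 24 high lines lay above the median of the low lines. GATAd, a GATA transcription factor, was at 66.6, 88.0 and 103 CPM in high lines, against 57.3, 75.4 and 94.5 CPM in low lines (0.20 ± 0.0424, adjusted p = 0.0132), with 23 high lines above the low median. Utx, a demethylase of histone H3 lysine 27, was at 62.5, 77.3 and 99.5 CPM in high lines, against 54.0, 64.9 and 85.1 CPM in low lines (0.21 ± 0.0485, adjusted p = 0.0204). The groups overlapped for each of these genes, but few high lines fell below the middle of the low lines. CG3065 (0.22), CG18011 (0.29), CG6791 (0.23) and CG5986 (0.35) were also higher, with adjusted p between 0.0195 and 0.0314. Outside the rule for named genes and chosen after their values were seen, Cenp-C, a centromere protein, had medians of 107 CPM in high lines and 80.8 CPM in low lines (0.37 ± 0.0917, adjusted p = 0.0329), and for, a cGMP-dependent protein kinase known for foraging behaviour, had 459 CPM in high lines and 415 CPM in low lines (0.14 ± 0.0352, adjusted p = 0.0358). The same holds for spz, the ligand of the Toll receptor (0.27), ari-2, an ariadne family ubiquitin ligase (0.22), the SUMO protease gene Ulp1 (0.20) and the transporter gene Oatp30B (0.14).

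The other 11 were lower in high lines. Abcd3, which encodes a peroxisomal transporter of the ABC family, was at 87.0, 113 and 159 CPM in high lines, against 96.2, 143 and 233 CPM in low lines (−0.41 ± 0.0892, adjusted p = 0.0132), and 2 of 24 high lines lay above the median of the low lines. CG4020, of the fatty acyl-CoA reductase family, was at 48.4, 78.9 and 106 CPM in high lines, against 71.0, 95.7 and 139.6 CPM in low lines (−0.35 ± 0.0766, adjusted p = 0.0132). FarO, a fatty acyl-CoA reductase of oenocytes, had medians of 9.92 CPM in high lines and 12.1 CPM in low lines (−0.33 ± 0.0847, adjusted p = 0.0422). The trypsin gene lambdaTry was at 16.8, 57.5 and 76.8 CPM in high lines, against 43.7, 72.9 and 125 CPM in low lines (−0.47 ± 0.112, adjusted p = 0.0232). LanB2, a laminin chain of basement membranes, had medians of 61.0 CPM in high lines and 76.7 CPM in low lines (−0.30 ± 0.074, adjusted p = 0.0313). The clock gene per (X:2579613-2586813, plus strand) was at 12.5, 17.7 and 27.9 CPM in high lines, against 13.6, 22.9 and 35.9 CPM in low lines (−0.36 ± 0.0941, adjusted p = 0.042), and 3 high lines lay above the low median. It was the only one of 10 clock genes to pass, and 9 of the 10 had negative fold changes (median −0.15). CG33127 (−0.35) and CG18473 (−0.52) completed the named genes that were lower in high lines.

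**Figure D4:**
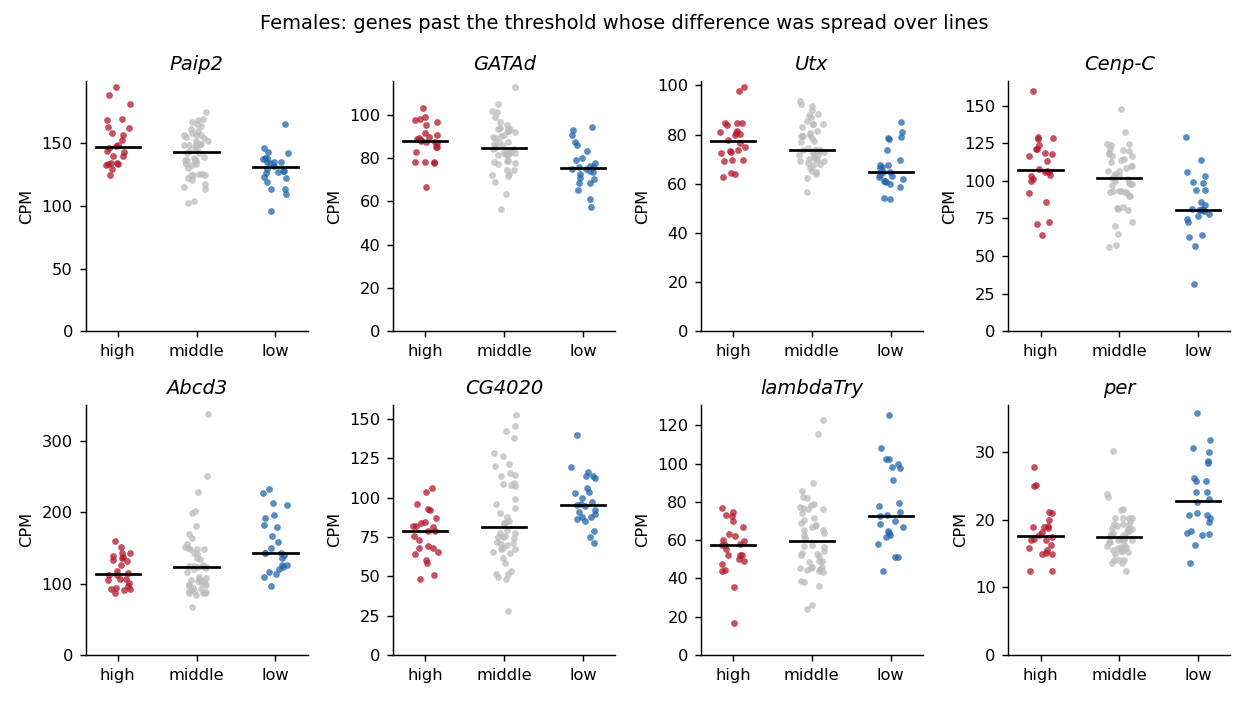
Levels in females (CPM, linear axis from 0) of 4 genes that were higher in high lines (top) and 4 that were lower (bottom), in high, middle and low lines. Each point is 1 line and the bar is the median. Paip2 medians were 147 CPM in high lines and 131 CPM in low lines, and Abcd3 medians were 113 CPM in high lines and 143 CPM in low lines.

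How many such genes passed depended strongly on the lines and on the lowest count admitted. Without DGRP_707, DGRP_786 and DGRP_900, 1709 of 14815 transcripts passed in females (11.5%), 874 higher (5.9%) and 835 lower (5.64%), of which 1513 were annotated and 1416 were spread over lines with a median absolute log2 fold change of 0.28. They included 126 of the 131. Without the lines with testis transcripts in a female library, Paip2, GATAd, CG5986, Abcd3, CG4020, lambdaTry and LanB2 still passed. Others kept their direction but did not pass (edgeR). Among them were Utx (adjusted p = 0.0983), Cenp-C (0.119), FarO (0.148), ari-2 (0.158), Ulp1 (0.179), per (0.253) and spz (0.281). With a mean of at least 50 counts, only GATAd passed among 9158 transcripts (adjusted p = 0.0404), the 26 spread transcripts tested had adjusted p up to 0.111, and 2018 transcripts (22.0%) had an unadjusted p under 0.05. With limma-voom 0 passed among the 14879, of which 2527 had an unadjusted p under 0.05 (2796, 18.8%, with edgeR). Leaving out each line in turn gave 95 to 289 calls, the highest without DGRP_49 (289), DGRP_900 (274), DGRP_707 (237) and DGRP_786 (215), and 12 of the 27 spread transcripts passed in every one of these 48 fits, among them Paip2, GATAd, Utx, Abcd3, CG4020 and lambdaTry.

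The 104 transcripts with a large share in a single line often described that line, but not in every case. DGRP_59, a low line, had the highest level of 14 called transcripts, and 38 lines had the highest level of at least 1. For 75 transcripts that line held at least 50% of the sum. FBgn0013809 (X:17958516-17972505, plus strand), for which no symbol was matched, was higher in high lines by 4.31, but 92.6% of its summed CPM was in DGRP_882. dsf, a nuclear receptor gene of sexual behaviour, was higher by 4.74, with 70.1% in DGRP_105. Rsph4a, a radial spoke protein of cilia and flagella, was lower by 3.28 on the log2 scale, with 30.3% in DGRP_385. When a line was left out, the low-count transcripts it held could fall below the minimum, and 14 of the 131 passed in all 48 fits.

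In males 61 of the 64 calls were held by a single line, 51 of the 64 were NTRs, and 3 transcripts passed in all 48 fits that left out a line. The 3 spread genes were Cse1, CG3257 and CG43088. Cse1, the export receptor of importin alpha, was at 33.6, 39.3 and 49.0 CPM in high lines, against 28.8, 35.4 and 41.7 CPM in low lines (0.16 ± 0.0391, adjusted p = 0.0432). CG3257 was at 19.2, 26.7 and 31.7 CPM in high lines, against 24.1, 29.7 and 39.5 CPM in low lines (−0.21 ± 0.0495, adjusted p = 0.0428). CG43088, outside the rule for named genes and chosen after its values were seen, had medians of 2.22 CPM in high lines and 1.48 CPM in low lines (0.49 ± 0.113, adjusted p = 0.0351). The groups overlapped for each of them. Cyp4c3, a cytochrome P450, was higher by 2.05 ± 0.502 (adjusted p = 0.0476), with 61.9% of its sum in DGRP_355, and without that line its log2 fold change was −0.01.

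In both sexes 36 transcripts passed, which is 27.5% of the female calls and 56.2% of the male calls. All 36 had the same sign and the same highest line in both sexes, and 5 were annotated (dsf, CG33253, asRNA:CR43478, asRNA:CR45146 and lncRNA:CR45541). Females and males of a line share its genotype, so these are not separate lines. Of the 27 spread calls of females, 22 had the same sign in males and 0 passed there.

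The difference between the sexes was tested with line as a block. No transcript of 18154 passed for the interaction of sex and group (edgeR), while 2296 had an unadjusted p under 0.05, and limma-voom on the same summed counts also gave 0. GATAd differed by 0.20 in females and by 0.00 in males (interaction −0.22 ± 0.06, adjusted p = 0.261), Utx by 0.21 in females and −0.01 in males (−0.24 ± 0.0637, adjusted p = 0.256) and Paip2 by 0.21 in females and −0.01 in males (−0.24 ± 0.0765, adjusted p = 0.261). Abcd3 differed by −0.41 in females and −0.35 in males (0.06 ± 0.0666, adjusted p = 0.758). The fold change of Hsp68 was 1.13 in females and 0.43 in males (−0.28 ± 0.225, adjusted p = 0.634). The interaction comes from a fit of both sexes with a term for each line, so it need not equal the difference of the separate fold changes. With these tests no gene was therefore shown to differ between high and low lines in only 1 sex. The result depended on the setting. The interaction did have calls with the score as a slope over all lines, and with a replicate block in limma on single libraries. Whether those transcripts differed in only 1 sex is not given here.

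Most markers of a tissue had fold changes of the same sign in females. In bulk samples of whole flies, a smaller tissue and less RNA per cell cannot be told apart. Muscle markers had a median log2 fold change of −0.20 (19 of 20 negative, 0 called), with summed levels of 10680, 14440 and 21880 CPM in high lines, against 11510, 16320 and 27570 CPM in low lines. Head and eye markers had −0.21 (16 of 16 negative, 0 called), with summed levels of 2809, 3702 and 5713 CPM in high lines, against 3022, 4185 and 7025 CPM in low lines. Ovary markers had 0.11 (21 of 23 positive, 0 called), with summed levels of 15470, 26610 and 39230 CPM in high lines, against 15830, 26080 and 37910 CPM in low lines. Midgut markers had −0.13 (20 of 28 negative) and fat body markers 0.15 (7 of 10 positive), with 0 called in either. Ovary is also where small heat shock genes are transcribed without stress, and the part of ovary size in the differences in Hsp26, Hsp27 and the spread genes was not tested.

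Without DGRP_707, DGRP_786 and DGRP_900 the same lists held calls. Muscle genes lower in high lines were Mhc, Tm2, up, Mlc2, sls, bt and Zasp66 (7 of 20, median −0.28), which encode thick and thin filament and sarcomere proteins. The photoreceptor genes ninaC and trp were lower (2 of 16, median −0.26). The maternal germ cell and patterning genes gcl and bcd were higher (2 of 23, all 23 positive, median 0.17). Of the clock genes per, Clk and the neuropeptide gene Pdf were lower (3 of 10). Hsf (0.24, 1 of 2 in its list), the Hsp40 gene mrj (0.16, 1 of 17) and the AP-1 gene Jra (1 of 14) were higher. The nuclear receptor genes usp and Hr39 (2 of 20), Prx2 and GstE8 (2 of 32), Ero1L (1 of 12) and Lsp1beta (1 of 10) were also higher. Hsp67Ba (−0.55, 1 of 7), Hsp60B (1 of 9), Xbp1 (1 of 12) and Eip63F-1 (1 of 20) were lower. The shares called in the head, ovary, co-chaperone, mitochondrial, oxidative stress, FOXO and JNK and fat body lists were near or below the 11.5% called among all transcripts. Those of the ecdysone, endoplasmic reticulum and other small heat shock lists lay a little above it, on few calls each. The muscle (7 of 20) and clock (3 of 10) lists lay further above it. All their calls were lower in high lines, as were 5.64% of all transcripts. In males without these lines 0 muscle and 0 clock genes were called, and the muscle median was −0.05.

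Transcripts of the other sex also differed between the groups. In females, testis markers had a median log2 fold change of −2.14 (10 of 10 negative), and the sperm protein genes Mst84Db (−2.95 ± 0.724, adjusted p = 0.0289) and Mst87F (−2.46 ± 0.651, adjusted p = 0.0481) passed. Accessory gland and ejaculatory bulb markers had −2.07 (15 of 15 negative, 0 called). Without DGRP_707, DGRP_786 and DGRP_900, 7 of 9 testis markers tested (median −2.93) and 12 of 15 accessory gland and ejaculatory bulb markers (median −2.98) were lower in high lines, the largest shares called among the 21 lists, against 5.64% of all transcripts. Among the 12 were Acp62F and Acp76A, which encode seminal fluid proteins, and Ebp, the gene of a protein of the ejaculatory bulb. The summed testis markers were at 4.21, 8.0 and 55.1 CPM in the female libraries of high lines, against 3.63, 9.07 and 181 CPM in those of low lines. More than 40 CPM was found in 1 library of high lines, that of DGRP_707, and in 6 of low lines. Leaving out DGRP_707, DGRP_786 and DGRP_900 thus removed the only such library of high lines, while the 6 of low lines stayed in. The defining testis markers were thus near 0 in most libraries and raised in a few. Without the 7 lines with such libraries, 59 transcripts passed in females, 49 of them among the 131. In males the summed ovary markers exceeded 300 CPM in 3 libraries of high lines and 2 of low lines, with medians of 44.8 CPM in high lines and 42.9 CPM in low lines, and 39 transcripts passed without those lines.

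**Figure D5:**
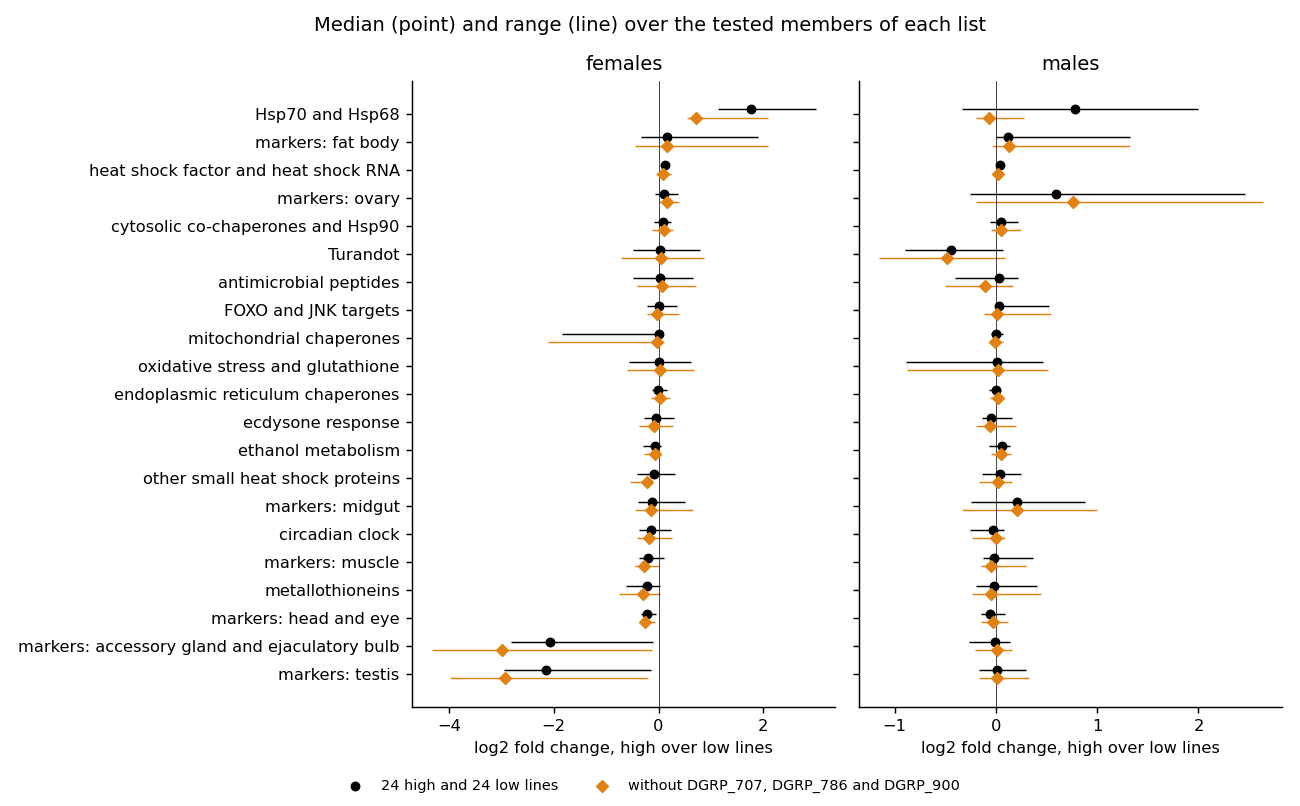
Median (point) and range (line) of the log2 fold change, high over low lines, over the tested members of 21 gene lists in females and males, for all 48 lines (black) and without DGRP_707, DGRP_786 and DGRP_900 (orange). In females the list of Hsp70 and Hsp68 had the highest median, 1.77, and the testis and accessory gland lists the lowest, −2.14 and −2.07.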

How the data were processed

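Raw read counts per gene model were deposited for each library, not normalized and with replicates kept apart. The authors trimmed reads with cutadapt 1.6, removed ribosomal, microbial and repeat sequences with BWA 0.7.10, aligned the rest to BDGP5 with STAR 2.4.0e and counted them with HTSeq. Alignments to more than 1 place (25.8% of those tallied), ambiguous ones (1.39%) and those on no model (2.85%) were given to no gene, and models marked ribosomal or mitochondrial (0.11% of gene counts) were left out here. Positions are those of release 5.

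Counts of the 2 replicates of a line and sex were summed and compared between 24 high and 24 low lines with edgeR 4.0.16 (R 4.3.3; TMM, quasi-likelihood F-test, BH adjustment, threshold 0.05), keeping transcripts that averaged 5 counts a library or more. The interaction had line as a block. SE is the absolute log2 fold change divided by the square root of F. Replicates of a line are separate collections of flies, and lines were the replicates of a group. Genes were named if among the 8 annotated ones with the smallest p in a direction and a mean of at least 50 counts, or if on 1 of 21 lists, of whose 328 symbols 16 were not matched. The lines, lists and genes were chosen with earlier results of these data known. Alternatives were DESeq2 1.42.0 and its size factors, totals, limma 3.58.1, other minima, flow cell as a covariate, single replicates or flow cells, 12 lines a group, a slope over 96 lines and a replicate block. Leaving out each line, DGRP_707, DGRP_786 and DGRP_900 (also where lines were ranked on other libraries), or lines with transcripts of the other sex, and robust dispersions were added after seeing the data. The tests were tested on simulated data: edgeR found 63.6% of genes changed 1.5-fold and 82.6% of those changed 2-fold among 14882 genes in females, and 78.9% and 87.5% among 18928 in males.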

Additional observations from a re-analysis of the deposited data

How the results depend on the processing

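Of 14879 transcripts 131 passed in females, and 134 with DESeq2's size factors, 119 with totals and 119 with robust dispersions. The count was 995 with no filter on counts, 1 with a minimum of 50 counts, 0 with limma-voom, 33 with the DESeq2 Wald test, 19 with flow cell set as a covariate, 0 in the lines off flow cells A and B and 96 in those on them, 42 with 12 lines a group, and 2670 with the score as a slope over 96 lines. Ranked on the other sex it was 60, ranked on replicate 1 69 and on replicate 2 220. It was 1709 without DGRP_707, DGRP_786 and DGRP_900 and 59 without lines with testis transcripts, both chosen after seeing the data. In males the 64 calls became 255 with no filter, 0 with a minimum of 50 counts, 0 with limma-voom, 1 with the DESeq2 Wald test (XLOC_011133), 23 with flow cell set as a covariate, 27 in the lines on flow cells A and B, 0 in the others, 0 with 12 lines a group, 451 ranked on replicate 1, 354 ranked on replicate 2, and 39 without lines with ovary transcripts. Using 1 replicate alone or leaving out 1 line gave 82 to 320 calls in females and 36 to 75 in males. The interaction had 0 calls, but 1186 with the slope over 96 lines. The cause of these changes was not tested. With limma-voom, Hsp26 (0.55, adjusted p = 0.075) and Hsp27 (0.41, adjusted p = 0.0733) no longer passed in males ranked on replicate 2. In females ranked on replicate 2, Hsp23 passed without DGRP_707, DGRP_786 and DGRP_900 (1.87, adjusted p = 0.00064).

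Over 1128 pairs of lines, deviations of same-numbered replicates had a mean correlation of 0.15 in females (53.7% of pairs over 0.1, lowest −0.565) and 0.396 in males (92.6% over 0.1, lowest −0.264). Same-numbered libraries thus tended to deviate together in males, but not in every pair, and were not treated as paired. With a replicate block, in limma on single libraries, 17 transcripts passed in females, 2 in males (CG43393 and CG15696) and 27 for the interaction. Of the 19 genes named by p, 19 kept their call and direction with DESeq2's size factors, with robust dispersions and without DGRP_707, DGRP_786 and DGRP_900, 14 with totals, 5 with flow cell set as a covariate, 7 without lines with transcripts of the other sex and 0 with limma-voom, and none changed direction. In simulated data 63.6% of genes changed 1.5-fold were found in females and 78.9% in males, so smaller differences can be missed with 24 lines a group at this depth. The simulated lines of a group shared 1 mean for each gene, and no transcript was made to be held by a single line. The rates may therefore not hold for the real data.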

Other observations

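Among the 48 middle lines, which entered no comparison, the annotated transcripts whose levels were most like the score of their sex were CG15387 (Pearson r = 0.546), l(2)37Cb (0.538) and mus81, a subunit of a DNA structure-specific endonuclease (0.531), and, in the opposite direction, PGRP-LC, a receptor for bacterial peptidoglycan (−0.546), and Vago, a secreted protein of the antiviral response (−0.537), in females. In males they were sa, a testis-specific TAF needed for spermatocyte transcription (0.492), CG1024 (0.482), FarO (0.453), and Gs1, a glutamine synthetase (−0.449), and Srg3 (−0.449). These are the 5 largest of 8843 transcripts in females and of 10757 in males, over 48 lines whose values share libraries with the score, and are given as descriptions. None of the 5 of females passed between high and low lines, with CG15387 the nearest (0.32 ± 0.0982, adjusted p = 0.0926, edgeR). FarO, positively related to the score among male middle lines, had a log2 fold change of −0.27 ± 0.107 between high and low lines in males (adjusted p = 0.397), and in females it fell by 0.33 ± 0.0847 (adjusted p = 0.0422).

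Inducible heat shock genes were also raised in libraries of middle lines, which the comparison did not use. Over the summed counts of a line, the highest level of Hsp70Bb among middle lines was 37.5 CPM in females (DGRP_306) and 22.9 CPM in males (DGRP_320). Hsp70Ba in males was also highest in DGRP_320, at 16.1 CPM. The testis markers reached 185 CPM in a female library and the ovary markers 2718 CPM in a male library of middle lines.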
